A study of Homo sapiens with 10 samples.

Results

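The aminoacyl-tRNA synthetases are the enzymes that join each amino acid to its transfer RNA before translation. Their transcripts were followed here through the gene symbols of 36 of these enzymes, out of 57993 symbols in the tables, 20 of them cytosolic and 16 mitochondrial. The members were chosen by symbol and not by a rule on their values, though with earlier results of these data known. All 36 were found and passed the filter on low values. The cells were HCT116, a human colorectal carcinoma line, and a purchased KDM5A-/- derivative of it. The KDM5A protein strips methyl groups off lysine 4 of histone H3. There were 2 libraries of KDM5A-/- cells given mutant KDM5A, 3 of KDM5A-/- cells given wild-type KDM5A, 3 of KDM5A-/- cells given empty vector and 2 of parental HCT116 cells given empty vector. In all 4 groups, GFP-positive cells were collected 24 hours after the plasmid was given, and total RNA was sequenced from them. The labels do not name the mutation. G418 was in the medium of the knockout line alone, so between knockout and parental cells the drug, the line and the genotype cannot be told apart.

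Most amino acids have a cytosolic synthetase and a separate mitochondrial one, both encoded in the nucleus and imported or retained according to their targeting sequence, while KARS and GARS each serve both compartments from a single gene. Several cytosolic synthetases sit together in a large multisynthetase complex. When uncharged transfer RNA accumulates, the kinase GCN2 phosphorylates the initiation factor eIF2, translation of the transcription factor ATF4 rises, and ATF4 then drives genes of amino acid supply, among them many cytosolic synthetases, through composite sites shared by C/EBP and ATF proteins.

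The composite site was looked for in RefSeq promoters (GRCh38.p14, 250 bases before to 50 bases after each listed start). It was chosen because many cytosolic synthetases are known to be regulated through it. A higher share among them was therefore likely in advance and is not a new result. The motif was TGATGNAA, read on both strands. Promoters were listed for 30 of the 36 genes, and AARS2, DARS, LARS, VARS, VARS2 and YARS were not matched. Of the 30 genes, 8 held the motif (26.7%), against 4.46% of the 27305 genes and 3.62% of the 35116 promoters in the table. All but 1 of the 8 were cytosolic: 7 of 16 cytosolic genes (43.8%) and 1 of 14 mitochondrial genes (7.14%). The cyclic AMP response element TGACGTCA was in none of the 30 genes, against 2.25% of all genes and 1.85% of all promoters. With so low a share, its absence from 30 genes is no contrast with the other genes. The 30-base windows around the motif follow, each read 5′ to 3′ on the strand of its gene with the motif in capitals. A match is a description of the letters and not a measured binding site.
AARS, chr16:70289675-70289704, minus strand: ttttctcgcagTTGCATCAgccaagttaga
CARS, chr11:3057407-3057436, minus strand: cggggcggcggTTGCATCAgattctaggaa
GARS, chr7:30594834-30594863, plus strand: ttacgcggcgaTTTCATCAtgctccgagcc
IARS, chr9:92293692-92293721, minus strand: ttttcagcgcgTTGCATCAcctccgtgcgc
MARS, chr12:57488053-57488082, plus strand: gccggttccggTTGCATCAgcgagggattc
NARS, chr18:57621804-57621833, minus strand: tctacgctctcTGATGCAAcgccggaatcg
TARS, chr5:33440956-33440985, plus strand: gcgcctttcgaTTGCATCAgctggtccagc
YARS2, chr12:32756076-32756105, minus strand: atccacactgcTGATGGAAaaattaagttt
In 6 of the 7 cytosolic genes the motif lay on the strand opposite to the gene and read as TTGCATCA or TTTCATCA, and the site of AARS lay 187 bases before the listed start, while the other 6 cytosolic sites began within 33 bases of it.

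Each library gave 1 table of 60141 loci on a log2 FPKM scale, from which linear values were scaled to a common median ratio between libraries. Values below are these scaled FPKM, which are per transcript length, and a log2 change is that of the scaled value plus 1. A value of 1 or more was listed for 15509 to 16272 symbols, depending on the library. KDM5A stood at 23346 and 22816 in the mutant libraries, at 13453, 16237 and 15598 in the wild-type libraries, at 12.2, 15.3 and 12.3 in knockout cells with empty vector and at 13.3 and 17.7 in parental cells. Both plasmids were visible, while the whole-gene value did not separate knockout from parental cells. The 2 mutant libraries and parental library 2 differed from the rest, with 88.1 to 88.8% of the summed value in protein-coding genes, against 90.2 to 90.7% in the other 7, and at least 15.6% in ribosomal protein genes. Since both mutant libraries are among the 3, the mutant plasmid and the make-up of its libraries cannot be told apart. The part of this difference in any result below was not tested. The epithelial genes EPCAM, CDH1, KRT8, KRT18 and CDX2 were all at 12.5 or more in every library, whereas KRT20 and VIL1 did not pass 1.28. Of 10 markers of other cell types, COL1A1 lay between 13.5 and 28.7 and the other 9 did not pass 1.55. The labels do not say whether replicate libraries came from separate cultures, and p-values then describe the spread of these samples alone, which may be technical. In bulk RNA, fewer cells of a kind and less RNA per cell cannot be told apart.

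The cytosolic synthetases were abundant and the mitochondrial ones modest, and for 29 of the 36 genes the highest of the 10 libraries was under 1.5 times the lowest. The share of all genes, or of genes of like level, under that limit was not counted. The 20 cytosolic genes averaged between 40.2 and 240 over all libraries, with a median of 163, and the 16 mitochondrial genes between 4.83 and 71.2, with a median of 21.2. SARS, which loads serine, stood highest at a mean of 240, just above WARS for tryptophan at 239 and QARS for glutamine at 226. FARSB, which encodes the beta subunit of the phenylalanine enzyme, was the lowest cytosolic gene at 40.2, below IARS2, the mitochondrial isoleucine enzyme, at 71.2, and overlapping in range with CARS2, the mitochondrial cysteine enzyme, at 42.7. WARS2, PARS2 and FARS2, the mitochondrial enzymes for tryptophan, proline and phenylalanine, were the lowest of all at 4.83, 6.67 and 7.69. Of the 35 neighbouring pairs in the order of means, 32 overlapped in their library ranges. The 3 pairs that did not overlap were NARS above EPRS, IARS2 above CARS2, and AARS2 above FARS2. In the 13 amino acids with 1 gene for each compartment, the cytosolic gene was always higher, by a factor of 2.18 for cysteine up to 49.5 for tryptophan (median 7.20). These 29 were 18 of 20 cytosolic and 11 of 16 mitochondrial genes. TARS2, the mitochondrial threonine enzyme, varied most, by 1.75-fold, and NARS, the asparagine enzyme, varied least, by 1.11-fold.

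**Figure D1:**
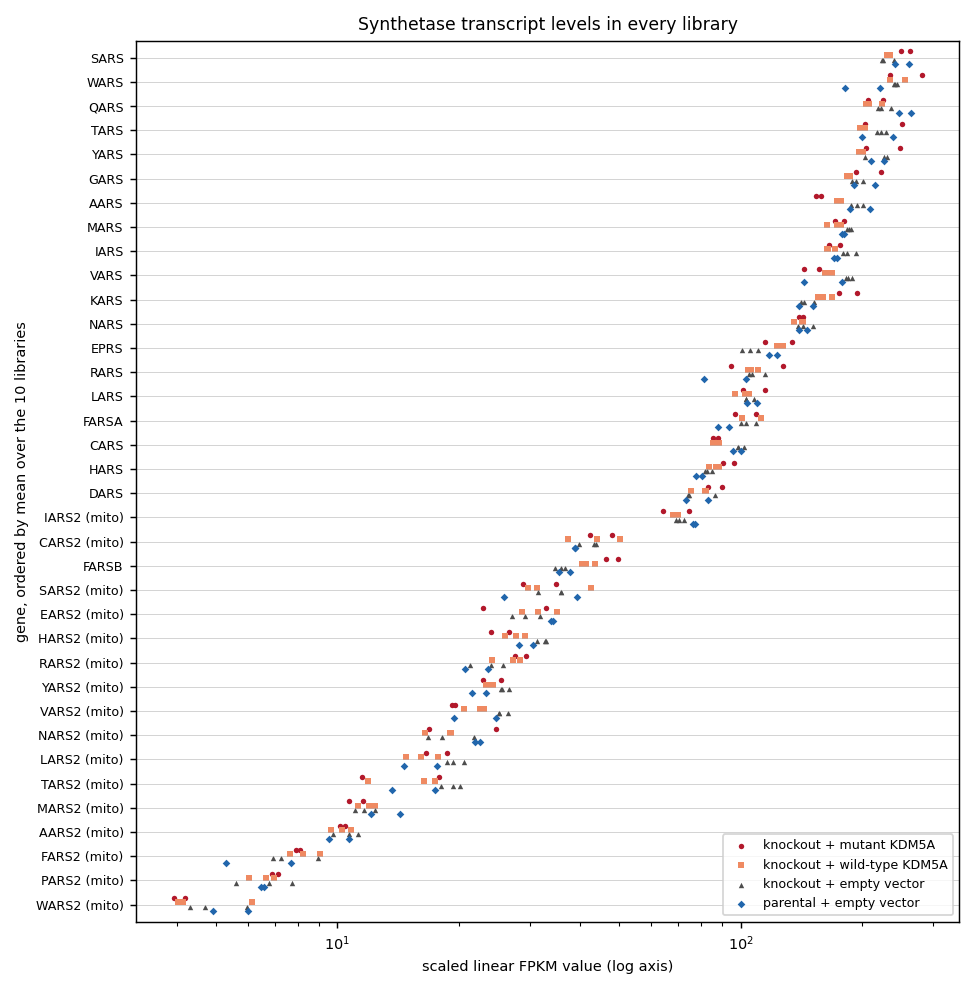
Scaled FPKM of the 36 synthetase genes in each of the 10 libraries on a log axis, ordered by mean, with points by group. The cytosolic genes run from SARS at 240 to FARSB at 40.2 and the mitochondrial genes from IARS2 at 71.2 to WARS2 at 4.83, so that IARS2 and CARS2 stand above FARSB.

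Summed over the 36 genes, the groups also lay close together. The sum was 3655 and 3346 in the mutant libraries, 3390, 3341 and 3363 in the wild-type libraries, 3545, 3438 and 3460 in knockout cells with empty vector and 3364 and 3484 in parental cells. The mutant libraries lay on both sides of the knockout libraries with empty vector, and all 3 wild-type libraries lay below them. As a share of the deposited total the same sums were 0.308 and 0.292% in mutant, 0.330 to 0.347% in wild-type, 0.374 to 0.381% in knockout empty-vector and 0.367 and 0.336% in parental libraries, so the picture of the sum depends on the scaling. The ratio of the cytosolic to the mitochondrial sum was 8.64 and 8.51 in the mutant libraries, 8.14, 7.88 and 8.20 in the wild-type libraries, 8.15, 7.94 and 8.16 in knockout cells with empty vector and 7.72 and 8.61 in parental cells. The 3 libraries with the highest ratio were the same 3 that stood apart in their protein-coding share.

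The first comparison asked which synthetase transcripts differed between knockout cells with mutant KDM5A and knockout cells with the empty vector. Of the 36 genes, 7 passed (limma on all 10 libraries, Benjamini-Hochberg adjusted p under 0.05), 2 higher and 5 lower, which is 19.4% beside 16.5% of the 17779 genes tested, so the share was near the background. Over all genes 9.48% passed higher and 7.05% lower. The changes were small. The median log2 change of the 36 genes was -0.02, against -0.01 over all genes, and the median size of a change without its sign was 0.10, against 0.23 over all genes. The genes tested were not matched for level: 11607 genes had a mean of at least 5, against 17779 tested. Whether genes of like level changed as little was not tested. The 2 groups did not overlap in 15 of the 36 genes (6 higher, 9 lower), beside 46.9% of all genes (23.3% higher and 23.6% lower). The unadjusted 95% interval lay within 0.5 on the log2 scale for 30 of the 36 and within 1 for all 36.

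The split between higher and lower calls rested on the scaling. With the values as deposited, where the median of all genes was -0.30, 23 synthetase genes passed, all of them lower, and with quantile normalization 9 passed, 8 of them lower. The changes of single genes below are therefore relative to the other genes of the library.

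FARSB and KARS rose with mutant KDM5A. FARSB (chromosome 2, 222570535 to 222656337, minus strand, GRCh38) stood at 49.8 and 46.4 in the mutant libraries, at 41.5, 40.5 and 43.6 in the wild-type libraries, at 36.6, 34.6 and 35.8 in knockout cells with empty vector and at 35.4 and 37.8 in parental cells. The mutant libraries were the highest, the wild-type libraries lay between, and neither overlapped the empty-vector libraries. The log2 change with mutant KDM5A was 0.42 (SE 0.06, adjusted p = 0.0061), a 1.35-fold higher mean. FARSB passed whichever library was left out and under quantile normalization, but not with the values as deposited, where its change was 0.09 (adjusted p = 0.358). FARSA, which encodes the alpha subunit of the same tetrameric enzyme, read 96.8 and 109 in the mutant libraries, 101, 112 and 112 in the wild-type libraries, 100, 103 and 109 with empty vector and 93.8 and 87.8 in parental cells, and its groups overlapped in the knockout cells. The FARSA to FARSB ratio was accordingly 1.95 and 2.36 in the mutant libraries, 2.43, 2.77 and 2.58 in the wild-type libraries, 2.74, 2.98 and 3.05 in knockout cells with empty vector and 2.65 and 2.32 in parental cells.

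KARS (chromosome 16, 75627473 to 75648643, minus strand), the lysine enzyme of both compartments and a member of the multisynthetase complex, stood at 194 and 175 in the mutant libraries, at 155, 168 and 160 in the wild-type libraries, at 152, 141 and 144 in knockout cells with empty vector and at 140 and 151 in parental cells. Both mutant libraries exceeded all 8 others. The log2 change was 0.34 (SE 0.07, adjusted p = 0.0122). The call was lost without mutant library 1 (adjusted p = 0.0713), with quantile normalization (0.14, adjusted p = 0.129) and with the values as deposited, where the change was 0.00 (adjusted p = 0.989). The locus overlaps TERF2IP on the opposite strand by 859 bases, and the strand setting of the counting is not given in the sources used here.

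AARS, CARS and VARS, which load alanine, cysteine and valine in the cytosol, fell with mutant KDM5A. AARS (chromosome 16, 70252294 to 70289543, minus strand) stood at 154 and 158 in the mutant libraries, at 178, 176 and 173 in the wild-type libraries, at 201, 194 and 188 in knockout cells with empty vector and at 209 and 187 in parental cells. The mutant libraries were the lowest of all and the wild-type libraries the next, with no overlap between the 3 groups of knockout cells. The log2 change with mutant KDM5A was -0.31 (SE 0.06, adjusted p = 0.0104). It passed under both other scalings, and of the 10 libraries left out in turn only mutant library 1 ended the call (adjusted p = 0.0542).

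CARS (chromosome 11, 3000921 to 3057613, minus strand) stood at 87.7 and 85.7 in the mutant libraries, at 88.6, 85.3 and 87.4 in the wild-type libraries, at 102, 98.4 and 98.5 in knockout cells with empty vector and at 100 and 95.9 in parental cells. The mutant and wild-type libraries shared a range, and all 5 lay below all 5 libraries with empty vector. The change with mutant KDM5A was -0.20 (SE 0.05, adjusted p = 0.0251). It was lost without any 1 of the 2 mutant and 3 knockout empty-vector libraries (adjusted p between 0.0613 and 0.0766). VARS (chromosome 6, 31777517 to 31795953, minus strand) stood at 157 and 144 in the mutant libraries, at 162, 164 and 169 in the wild-type libraries, at 182, 189 and 185 in knockout cells with empty vector and at 178 and 143 in parental cells. Its change was -0.30 (SE 0.08, adjusted p = 0.0409), and parental library 2, 1 of the 3 libraries that stand apart, was as low as the mutant libraries. The call was lost without any 1 of the 8 knockout libraries (adjusted p between 0.0621 and 0.156). Without the filter on low values the calls of VARS, HARS2 and VARS2 were lost, and with only the compared libraries in the fit that of CARS was lost.

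HARS2 and VARS2, the mitochondrial enzymes for histidine and valine, also fell. HARS2 (chromosome 5, 140691425 to 140699291, plus strand) stood at 26.6 and 24.1 in the mutant libraries, at 26.0, 29.1 and 27.8 in the wild-type libraries, at 31.2, 32.6 and 32.9 in knockout cells with empty vector and at 28.2 and 30.6 in parental cells. The empty-vector libraries of the knockout cells were the highest. Its log2 change was -0.34 (SE 0.08, adjusted p = 0.0188), lost without mutant library 2 or knockout empty-vector library 2 or 3 (adjusted p between 0.0588 and 0.0776). The HARS2 locus overlaps ZMAT2 on the same strand by 613 bases, so reads of the 2 genes may be shared. HARS2 starts head to head with HARS, the cytosolic histidine enzyme, and the 2 loci overlap by 600 bases. HARS read 96.1 and 90.6 in the mutant libraries, 88.6, 83.4 and 86.7 in the wild-type libraries, 85.0, 81.4 and 82.6 in knockout cells with empty vector and 80.3 and 77.4 in parental cells. Its change of 0.17 had the opposite sign and did not pass (adjusted p = 0.0621).

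VARS2 (chromosome 6, 30908241 to 30926459, plus strand) stood at 19.2 and 19.6 in the mutant libraries, at 22.6, 20.6 and 23.1 in the wild-type libraries, at 25.1, 25.2 and 26.4 in knockout cells with empty vector and at 24.7 and 19.5 in parental cells. As for VARS, parental library 2 was within the range of the mutant libraries. The log2 change was -0.38 (SE 0.10, adjusted p = 0.0319). It was lost without wild-type library 1 or any 1 of the mutant and knockout empty-vector libraries (adjusted p between 0.0526 and 0.119) and under quantile normalization (adjusted p = 0.0535). The locus overlaps GTF2H4 on the same strand by 5866 bases, so reads of the 2 genes may be shared.

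**Figure D2:**
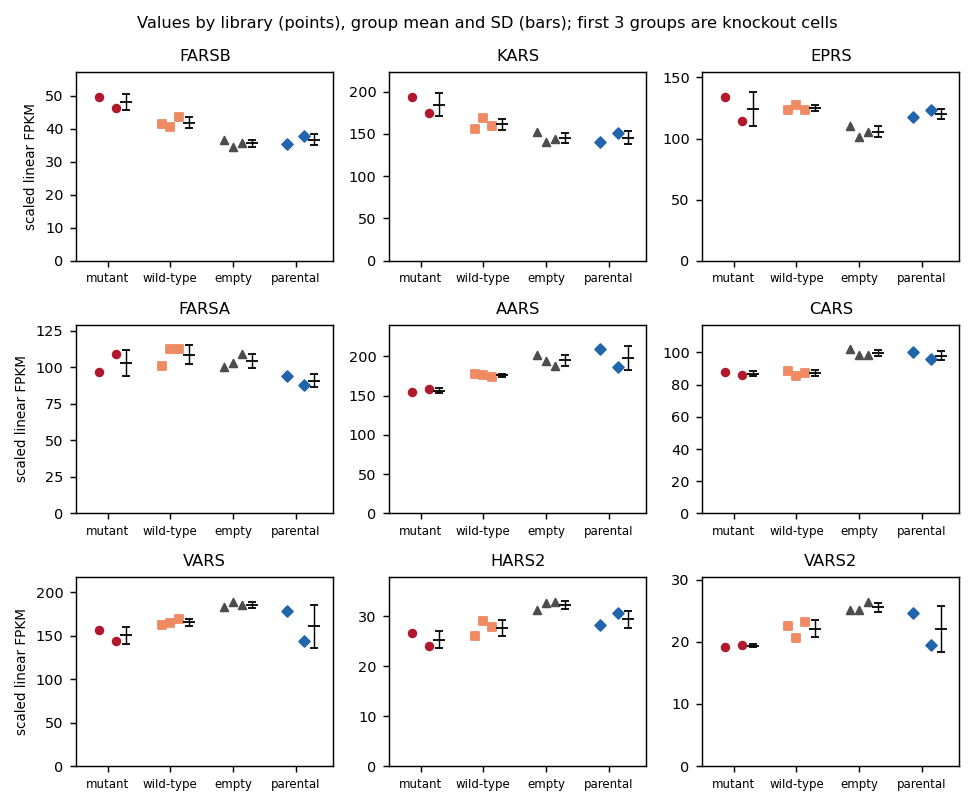
Scaled FPKM per library of 9 synthetase genes, each on its own linear axis from 0, with the group mean and SD as bars (n = 2 mutant, 3 wild-type, 3 empty vector, 2 parental). FARSB and KARS are highest in the mutant libraries, AARS is lowest there, and CARS is lower with either KDM5A plasmid than with empty vector.

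Of the other 29 genes, the closest to the threshold were EPRS, the joint glutamate and proline enzyme (0.23, adjusted p = 0.0575), HARS, and SARS (0.16, adjusted p = 0.0778). An unadjusted p under 0.05 was reached by 11 of the 36 genes, the 7 called and EPRS, HARS, SARS and RARS2. The share of all genes at that unadjusted p was not counted, here or in the comparisons below. Such counts therefore have no background beside them. TARS2 had the most negative estimate of the 29, -0.39, with an interval of -0.85 to 0.07. The 16 mitochondrial genes included 2 called lower and none higher (median -0.08), and the 20 cytosolic genes 2 higher and 3 lower (median 0.03). Of the 8 enzymes of the multisynthetase complex only KARS passed, and none of its 3 scaffold proteins AIMP1, AIMP2 and EEF1E1 passed in any of the 4 comparisons by limma, nor did any at an unadjusted p under 0.05. By structural class, the 19 class I enzymes had 0 higher and 3 lower, and the 17 class II enzymes 2 higher and 2 lower. The shares called were 12.5% of the mitochondrial, 25% of the cytosolic and 12.5% of the complex enzymes, 15.8% of class I and 23.5% of class II. Over all genes 16.5% passed, 9.48% higher and 7.05% lower.

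The next comparison set knockout cells with wild-type KDM5A against the same empty-vector libraries, which both comparisons therefore share. CARS alone of the 36 genes passed, 2.78% beside 4.54% of all genes (2.52% higher and 2.02% lower), and it was lower. Its log2 change was -0.19 (SE 0.04, adjusted p = 0.0412), beside -0.20 with mutant KDM5A. This call was lost without any 1 of the 6 libraries compared (adjusted p between 0.110 and 0.151). The change of FARSB was 0.22 with wild-type KDM5A (SE 0.06, adjusted p = 0.0620) beside 0.42 with the mutant. EPRS (chromosome 1, 219968600 to 220046658, minus strand) stood at 134 and 115 in the mutant libraries, at 124, 127 and 123 in the wild-type libraries, at 110, 101 and 106 in knockout cells with empty vector and at 117 and 123 in parental cells. All 3 wild-type libraries exceeded the knockout libraries with empty vector, and the change of 0.24 did not pass (SE 0.06, adjusted p = 0.0728).

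Over the family, the median change with wild-type KDM5A was -0.04, against 0.00 over all genes. The median size was 0.09, against 0.15 over all genes, again not matched for level. The groups did not overlap in 3 genes in the higher and 13 in the lower direction, beside 32.6% of all genes (16.4% higher and 16.2% lower). The interval lay within 0.5 on the log2 scale for 35 of 36 genes, TARS2 being the exception with -0.74 to 0.08. At an unadjusted p under 0.05 there were 10 genes. With only the libraries compared in the fit, 6 genes passed instead of 1. EPRS (0.24) and FARSB (0.22) were higher, and CARS (-0.19), VARS (-0.17), TARS (-0.16) and AARS (-0.15) lower. Neither the mutant libraries nor parental library 2, the 3 that stand apart, enter this comparison. Leaving them out therefore kept every change as it was, and cannot show the part of their make-up in it.

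**Figure D3:**
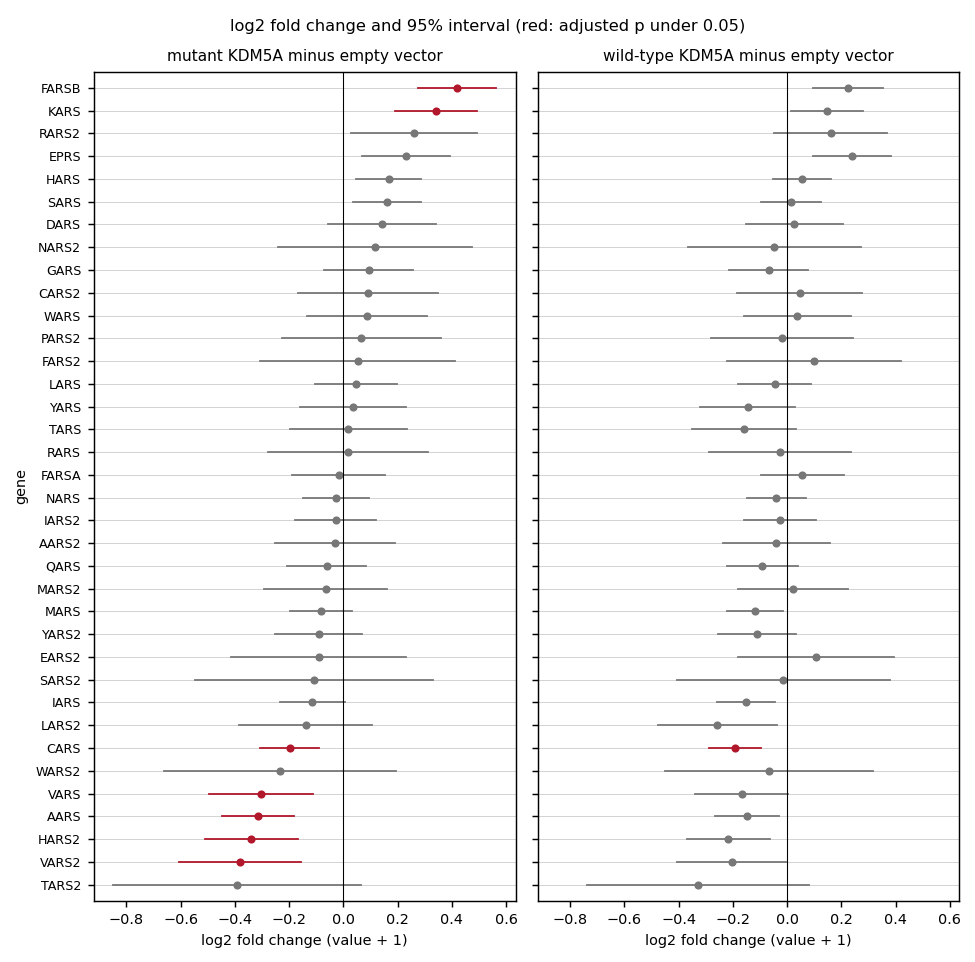
Log2 fold change with its unadjusted 95% interval for each of the 36 synthetase genes, mutant minus empty vector on the left and wild-type minus empty vector on the right, with red for an adjusted p under 0.05. The estimates run from -0.39 to 0.42 with the mutant and from -0.33 to 0.24 with wild-type KDM5A.

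Between the 2 plasmids, none of the 36 genes passed by limma for mutant minus wild-type KDM5A, beside 0.0562% of all genes (0.0337% higher and 0.0225% lower), and 4 genes had an unadjusted p under 0.05. The smallest p-values were those of FARSB (0.20, interval 0.05 to 0.34, adjusted p = 0.146), KARS (0.19, interval 0.04 to 0.34, adjusted p = 0.159, and 0.12 without mutant library 1) and AARS (-0.17, interval -0.30 to -0.04, adjusted p = 0.163). Their library values, given above, did not overlap between mutant and wild-type. With the values as deposited FARSB and KARS turned round, to -0.03 each, and AARS (-0.39) and HARS2 (-0.34) passed, each at an adjusted p of 0.0409. The groups did not overlap in 8 genes higher and 3 lower, beside 38.8% of all genes (19.5% higher and 19.4% lower). For 31 of the 36 genes the interval lay within 0.5, the exceptions being the mitochondrial EARS2, NARS2, SARS2, TARS2 and WARS2. The calls of the mutant alone are thus not shown to be particular to the mutant.

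Knockout and parental cells, both with empty vector, had none of the 36 genes past the threshold in limma, beside 8.94% of all genes (4.84% higher and 4.09% lower), and 8 genes had an unadjusted p under 0.05. WARS (chromosome 14, 100333787 to 100376805, minus strand), the tryptophan enzyme and an interferon-inducible gene, stood at 240, 242 and 244 in knockout cells and at 181 and 221 in parental cells. The ranges did not overlap, and the difference of 0.27 did not pass (interval 0.05 to 0.49, adjusted p = 0.120). Leaving out parental library 1 gave 0.13 and leaving out parental library 2 gave 0.41, and neither passed. On all libraries it did pass with the values as deposited (adjusted p = 0.0288) and with quantile normalization (adjusted p = 0.0423). YARS2, the mitochondrial tyrosine enzyme, stood at 26.6, 25.4 and 25.6 in knockout cells and at 23.4 and 21.5 in parental cells, a difference of 0.20 (interval 0.04 to 0.36, adjusted p = 0.121). Its locus overlaps DNM1L, at a mean of 47.9 over all libraries, by 18162 bases on the opposite strand. As the strand setting of the counting is not given, reads of DNM1L may enter the YARS2 value. QARS, the glutamine enzyme, stood at 223, 220 and 236 in knockout cells and at 247 and 264 in parental cells, a difference of -0.18 (interval -0.32 to -0.03, adjusted p = 0.125). The median difference of the 36 genes was 0.03, against 0.00 over all genes. The median size was 0.11, against 0.19 over all genes, not matched for level. The groups did not overlap in 13 genes higher and 6 lower in knockout cells, beside 42.4% of all genes (21.9% higher and 20.6% lower). The interval lay within 0.5 for 28 of 36. Without parental library 1, VARS (0.37, adjusted p = 0.0105) and VARS2 (0.37, adjusted p = 0.0389) passed, and without any other single library none did.

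**Figure D4:**
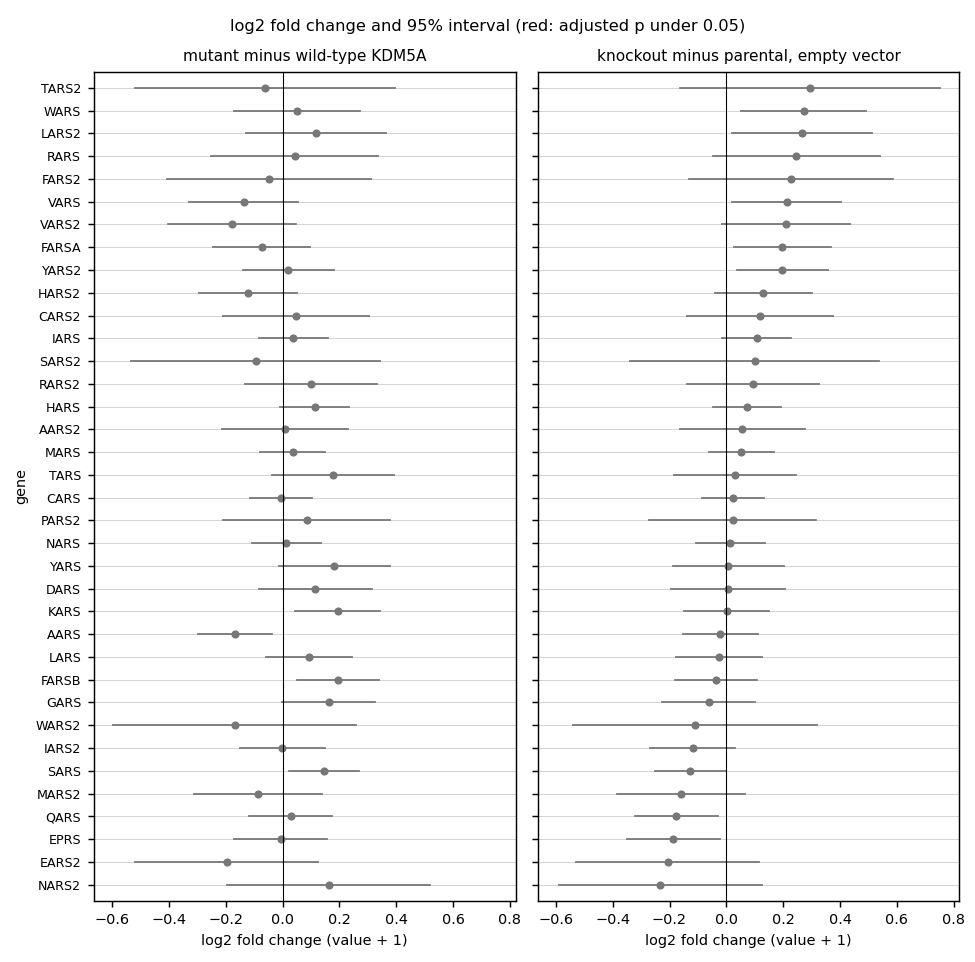
Log2 fold change with its unadjusted 95% interval for each of the 36 synthetase genes, mutant minus wild-type KDM5A on the left and knockout minus parental cells on the right. No gene passed in either comparison, and the estimates run from -0.20 to 0.20 on the left and from -0.23 to 0.29 on the right.

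In the fit of all 10 libraries with the present scaling and filter, none of the cytosolic synthetases described as targets of ATF4 (13 genes) passed higher with either plasmid. With mutant KDM5A, 3 of the 13 fell (AARS, CARS and VARS), none rose, and the median was 0.02. That is 23.1% called, beside 16.5% of all genes. With wild-type KDM5A 1 of 13 fell (7.69%, beside 4.54% of all genes), 10 of 13 estimates were negative, and the median was -0.12. The other 7 cytosolic genes had 2 called higher with mutant KDM5A, FARSB and KARS (median 0.14), and none called with wild-type KDM5A (median 0.05, 2 at an unadjusted p under 0.05). All 7 cytosolic genes whose promoter held the printed TGATGNAA site are in the list of 13. Promoters were listed for 10 of the 13 and for 6 of the other cytosolic genes. List and motif both come from what is known of ATF4 targets, so this overlap is not a test. Of the 7 genes with the site, AARS and CARS fell with mutant KDM5A, and GARS, IARS, MARS, NARS and TARS lay between -0.11 and 0.09 without passing. This holds for the present scaling: IARS (-0.33), MARS (-0.29) and NARS (-0.19) passed lower with quantile normalization, and all 5 passed lower with the values as deposited (-0.45 to -0.25). EPRS, 1 of the 13, passed higher by limma in some settings. It did so with mutant KDM5A at a filter of a mean of 5 (0.23, adjusted p = 0.0431). With wild-type KDM5A it passed with only the libraries compared in the fit (0.24, adjusted p = 0.0212). AARS, CARS and VARS passed lower in both of these fits, and TARS in that of wild-type KDM5A.

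The transcript of ATF4 itself was called higher with mutant KDM5A, but on 1 of the 3 scalings run. It stood at 764 and 775 in the mutant libraries, at 656, 667 and 656 in the wild-type libraries, at 614, 602 and 619 in knockout cells with empty vector and at 622 and 681 in parental cells. Both mutant libraries were above all others. Its change with mutant KDM5A was 0.33 (adjusted p = 0.0065) and passed with any single library left out, but it was -0.01 with the values as deposited and -0.14 with quantile normalization, neither of which passed. DDIT3, a transcription factor induced by ATF4, stood at 145 and 172 in the mutant libraries, at 131, 130 and 135 in the wild-type libraries, at 115, 113 and 109 in knockout cells with empty vector and at 124 and 150 in parental cells. Its change with mutant KDM5A was 0.48 (adjusted p = 0.0104), and 0.15 with the values as deposited (adjusted p = 0.196). The DDIT3 locus overlaps MARS by 983 bases on the opposite strand, and MARS itself read -0.08 in this comparison.

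Genes around ATF4 and in amino acid supply were called in both directions with mutant KDM5A on the present scaling. Of 12 tested genes of the eIF2 and ATF4 pathway 3 rose and 2 fell (41.7%, beside 16.5% of all genes, 9.48% higher and 7.05% lower). The 3 that rose were ATF4, DDIT3 and EIF2AK2, the double-stranded RNA kinase of eIF2, and none of the 3 passed with the values as deposited. EIF2AK2 changed by 0.42 (adjusted p = 0.0280), lost without either mutant library or knockout empty-vector library 1 or 2 (adjusted p up to 0.134). The 2 that fell were PPP1R15B, a subunit that directs dephosphorylation of eIF2 (-0.48, adjusted p = 0.0054), and TRIB3, a pseudokinase induced by ATF4 (-0.29, adjusted p = 0.0277). TRIB3 lost its call without mutant library 2 or any 1 of the knockout empty-vector libraries (adjusted p up to 0.121). Of 15 genes of amino acid synthesis and uptake 1 rose and 3 fell (26.7% called). ALDH18A1 rose (0.28, adjusted p = 0.0125 by limma), but its change was -0.06 with the values as deposited. SLC7A1 (-0.41, adjusted p = 0.0114), SLC38A2 (-0.28, adjusted p = 0.0393) and SLC7A11 fell. The calls of ALDH18A1 and SLC7A1 were lost without mutant library 1, and that of SLC38A2 without any 1 of the 8 knockout libraries. SLC7A11, the cystine importer, stood at 30.2 and 29.5 in the mutant libraries, at 40.6, 41.7 and 41.3 in the wild-type libraries, at 47.2, 47.0 and 47.3 in knockout cells with empty vector and at 39.5 and 33.9 in parental cells. It was lowest in the mutant libraries, and its change of -0.64 (adjusted p = 0.0016) passed with every single library left out and under both other scalings. ASNS, asparagine synthetase and a standard ATF4 target, stood at 341 and 275 in the mutant libraries and at 301, 284 and 274 in knockout cells with empty vector, with overlapping ranges.

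With wild-type KDM5A, EIF2AK2 rose as well (0.41, adjusted p = 0.0424, beside 0.42 with the mutant) and PPP1R15B fell (-0.29, adjusted p = 0.0370), and both calls were lost without any 1 of the 6 libraries compared (adjusted p up to 0.144 and 0.126). No gene of these lists passed for mutant minus wild-type KDM5A in limma, where 6 of the 12 pathway genes had an unadjusted p under 0.05. Between knockout and parental cells, PPP1R15A, the stress-induced counterpart of PPP1R15B, stood at 145, 150 and 143 in knockout cells and at 90.7 and 84.6 in parental cells, a log2 difference of 0.73 (adjusted p = 0.0005) that passed with every single library left out. Of the 15 genes of amino acid supply, SLC7A11 was higher and ASNS lower in knockout cells. SLC7A11 differed by 0.36 (adjusted p = 0.0148), at 47.2, 47.0 and 47.3 in knockout cells against 39.5 and 33.9 in parental cells, and lost its call without knockout empty-vector library 3 or parental library 2 (adjusted p up to 0.0733). ASNS was lower (-0.43, adjusted p = 0.0361), at 301, 284 and 274 against 352 and 423 in parental cells, and lost its call without parental library 2 or any 1 of the wild-type or knockout empty-vector libraries (adjusted p up to 0.200).

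**Figure D5:**
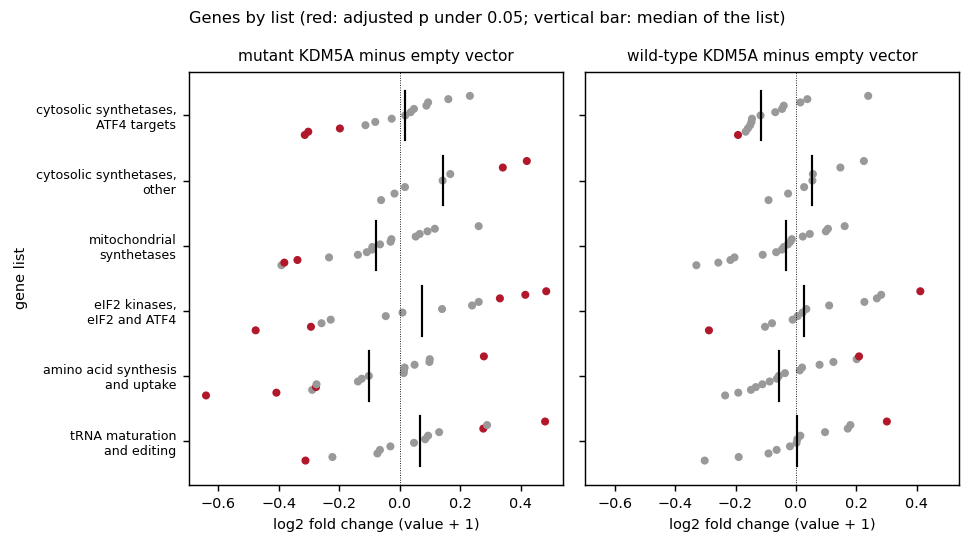
Log2 fold changes of single genes in the synthetase groups and in further lists of the pathway. Mutant minus empty vector is on the left and wild-type minus empty vector on the right. Red marks an adjusted p under 0.05, grey the other genes, and a vertical bar the median of each list. The 13 cytosolic genes described as ATF4 targets have medians of 0.02 with mutant and -0.12 with wild-type KDM5A.

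Partners of the synthetases in charging were measured as well. Of 12 genes of transfer RNA maturation and editing, 2 rose and 1 fell with mutant KDM5A (25% called, beside 16.5% of all genes). ELAC2, which cuts the 3′ trailer from transfer RNA precursors, rose by 0.28 (adjusted p = 0.0317) and TSEN15, a subunit of the splicing endonuclease, changed by -0.31 (adjusted p = 0.0371). ELAC2 lost its call without 6 of the 10 libraries in turn (mutant library 1, wild-type library 1 or 3, or any knockout empty-vector library), and TSEN15 without any 1 of the 8 knockout libraries (adjusted p up to 0.175 and 0.132). DTD1, which removes D-amino acids from charged transfer RNA, stood at 85.6 and 72.8 in the mutant libraries, at 68.8, 67.9 and 72.0 in the wild-type libraries, at 57.1, 54.8 and 57.0 in knockout cells with empty vector and at 70.5 and 76.2 in parental cells. The knockout libraries with empty vector were the lowest 3 of all. Its log2 change was 0.48 with mutant (adjusted p = 0.0063) and 0.30 with wild-type KDM5A (adjusted p = 0.0401), and its knockout minus parental difference was -0.37 (adjusted p = 0.0176). The mutant call held with each library left out but not with the values as deposited (0.14, adjusted p = 0.145). The wild-type call was lost without any 1 of the 6 libraries compared (adjusted p up to 0.141), and the parental one without knockout empty-vector library 2 or 3 or parental library 2 (adjusted p up to 0.105). AARSD1, an editing protein for mischarged alanine transfer RNA, stood at 87.0, 77.9 and 73.7 in knockout cells and at 53.0 and 52.8 in parental cells, a difference of 0.58 (adjusted p = 0.0044) that held with each library left out. GATB, a subunit of the amidotransferase that makes mitochondrial glutaminyl transfer RNA from the product of EARS2, stood at 28.4, 26.3 and 22.7 in knockout cells, above both parental libraries, whose mean was 15.5, a difference of 0.70 (adjusted p = 0.0083) that also held with each library left out. EARS2 read -0.21 there (interval -0.53 to 0.11). Of the 9 partners of mitochondrial charging and elongation, GATB was the 1 that passed between knockout and parental cells and the 1 that passed, lower, with wild-type KDM5A (-0.43, adjusted p = 0.0496, lost without any 1 of the 10 libraries). With mutant KDM5A only the elongation factor TUFM passed (0.18, adjusted p = 0.0339), and its change was -0.13 with quantile normalization and -0.16 with the values as deposited. The TUFM call was also lost without any 1 of the 8 knockout libraries (adjusted p up to 0.107).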

How the data were processed

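RNA was measured in 10 libraries. Each deposited table lists gene symbols and loci with the authors' FPKM on a log2 scale. The values themselves show a log2 of FPKM plus 1 and linear sums of 999975 or more in every library, a common total, so read counts and depth are unknown; steps between the lowest values held too few genes at 1 spacing to recover reads. The build was GRCh38 and the tools were Cufflinks 2.2.1, GATK 4.1.2, Picard and STAR 2.7.1a, per the submitters' processing notes; strand setting and annotation release are not given in the sources used here.

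Linear values were summed per symbol and divided by a median-ratio factor over the 13651 genes at 1 or more in every library. Genes at 1 or more in at least 2 libraries were tested (17779) with limma 3.58.1 in R 4.3.3 (lmFit, contrasts.fit, eBayes with a trend) on log2(value + 1), with 4 groups, 6 residual and 2.99 prior degrees of freedom. Tests were two-sided, with Benjamini-Hochberg adjustment over all genes tested in each of 4 comparisons. The script was tested on simulated data. Python 3.11.15, numpy 2.4.6, pandas 2.3.3 and matplotlib 3.10.9 did the rest. Loci were matched to GENCODE release 29 (36 of 36), and promoters came from RefSeq, GRCh38.p14.

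Members and lists were chosen with earlier results of these data known. Members that passed and were among the 8 of smallest p in a comparison are given for every library; where fewer than 3 passed, the 3 of smallest p. HARS, FARSA, EIF2AK2 with the mutant plasmid and single values of other members were chosen after their values were seen. From each further list at most 4 genes of smallest p are named, apart from EIF2AK2 and ASNS with the mutant plasmid. ASNS was not called there and was given outside this rule. As alternatives, results were recomputed with quantile normalization, with the values as deposited, with a pseudocount of 0.5, without a filter, with a mean of 5 as the filter, with only the libraries compared, with an adjusted p under 0.1, with a replicate block, each library left out, and, for wild-type KDM5A, without the 3 libraries of lower protein-coding share.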

Additional observations from a re-analysis of the deposited data

How the results depend on the processing

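With mutant KDM5A against empty vector, 7 synthetase genes passed, against 23 with the values as deposited, 4 with no filter and between 2 and 8 with 1 library left out (2 without mutant library 1, 4 without mutant library 2, and 4, 3 and 3 without knockout empty-vector library 1, 2 or 3). With wild-type KDM5A 1 passed, against 2 with the values as deposited, with quantile normalization or with a filter at a mean of 5, 3 at an adjusted p under 0.1, 6 with only the libraries compared, 6 without the mutant libraries and parental library 2, and 0 to 2 with 1 library left out. For mutant against wild-type 0 passed, against 2 with the values as deposited (0 to 0 with 1 left out), and FARSB and KARS changed sign there, to -0.026 and -0.032. For knockout against parental cells 0 passed, against 1 with the values as deposited and with quantile normalization, and 0 to 2 with 1 library left out. The cause was not tested. No pairing by replicate number was seen: deviations of same-numbered libraries from their group means had correlations of only -0.04 to 0.05. With 2 or 3 libraries a group, such correlations cannot exclude a shared culture or batch. With the numbers as a replicate block 2 genes passed in the mutant comparison with empty vector and 0 in the wild-type one. With 2 or 3 libraries a group and unknown depth, a gene that did not pass is not shown to be equal.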
